A study of Mus musculus with 7 samples.

Results

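The TRAF family adaptors, the 7 genes Traf1 to Traf7, were followed in RNA sequencing of isolated mouse pancreatic islets in which Traf6 had been targeted. The members were taken by gene symbol, each matching 1 of the 55487 rows of the gene count table, and all 7 passed the filter on low counts that 16203 genes passed. The libraries came from 3 Traf6 KO mice, in which Traf6 was knocked out specifically in beta cells according to the study's design text, and from 4 Control mice. All mice received a 60% fat diet for 15 weeks, and the islets recovered for 24 h in culture medium before RNA was taken. The sources used here do not give the Cre driver, the control genotype, the strain, the age or the sex of the mice. Isolated islets also hold alpha, endothelial, stromal, immune and remaining exocrine cells, in which a beta-cell-specific deletion leaves Traf6 in place.

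TRAF proteins are cytoplasmic adaptors that dock onto activated receptors of the tumour necrosis factor (TNF) and Toll-like or interleukin-1 families, and most of them carry a RING domain typical of ubiquitin ligases. They lead to NF-kB, MAP kinase and interferon signalling, and TRAF6 builds lysine-linked ubiquitin chains with the UBE2N conjugating enzyme. In islets these routes are known for the response of beta cells to inflammatory cytokines, and TRAF6 has also been tied to the ubiquitin marking of damaged mitochondria. The comparison asked whether the relatives of TRAF6 moved at the mRNA level where Traf6 was targeted.

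None of the 7 members passed the threshold (edgeR quasi-likelihood test, Benjamini-Hochberg adjusted p under 0.05 over all genes tested). Traf4 stood apart from its relatives in the table: its level was 19.6 ± 2.64 CPM in Traf6 KO islets and 10.4 ± 2.96 CPM in Control islets (SD, n = 3 and 4), with every Traf6 KO library above every Control library. Traf6 itself was at 14.9 ± 0.446 CPM in Traf6 KO islets and 19.6 ± 5.55 CPM in Control islets, and these ranges overlapped. Traf2, Traf3, Traf5 and Traf7 had fold changes with intervals around 0, and Traf1 was scarce and uneven. CPM stands for the count on the usual scale of counts per unit of sequencing depth, after TMM scaling of the library totals.

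The upstream sequences of 3 members are shown because the results turn on Traf4 and Traf6, and because Traf3 was the only member whose sequence before the transcription start held a match to the NF-kB consensus. Each is the 250 bases before the RefSeq start on GRCm38.p6, written 5′ to 3′ on the strand of the gene, at chr11:78165551-78165800 (minus strand) for Traf4, chr2:101678170-101678419 (plus strand) for Traf6 and chr12:111166120-111166369 (plus strand) for Traf3. Capitals mark the NF-kB consensus match.
Traf4: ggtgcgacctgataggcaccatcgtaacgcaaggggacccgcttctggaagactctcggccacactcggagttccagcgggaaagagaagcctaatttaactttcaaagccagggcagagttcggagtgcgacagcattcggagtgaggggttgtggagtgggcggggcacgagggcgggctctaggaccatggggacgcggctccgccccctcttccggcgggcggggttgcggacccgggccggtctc
Traf6: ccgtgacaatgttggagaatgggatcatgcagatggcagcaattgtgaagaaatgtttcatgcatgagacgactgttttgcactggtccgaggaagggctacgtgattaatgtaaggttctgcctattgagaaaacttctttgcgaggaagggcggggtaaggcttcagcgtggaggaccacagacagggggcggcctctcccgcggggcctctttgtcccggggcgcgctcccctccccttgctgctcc
Traf3: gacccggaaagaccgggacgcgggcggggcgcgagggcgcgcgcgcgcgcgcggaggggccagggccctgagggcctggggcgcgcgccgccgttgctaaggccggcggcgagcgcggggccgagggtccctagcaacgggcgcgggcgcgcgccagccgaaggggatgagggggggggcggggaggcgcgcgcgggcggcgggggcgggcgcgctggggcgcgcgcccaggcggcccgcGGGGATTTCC

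The Traf3 match began 10 bases before the start. Of 32851 mouse promoter windows of the same length in the RefSeq table, 7.3% held a match on either strand, so a match is a description of letters and not a binding site. Traf3 also had the most GC-rich window of the family, with 85.2% G or C and 49 CpG dinucleotides, against a median of 52.4% and 6 over all windows. The Traf4 window held 64.8% G or C and 22 CpG dinucleotides, and the Traf6 window 56.4% and 13. The windows of Traf1, Traf2, Traf5 and Traf7 ranged between 48.0% and 62.0% G or C, with 4 to 19 CpG dinucleotides, and none of these held a match.

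Library totals ran from 22104256 to 29917292 counts, and acinar RNA, from the exocrine pancreas, differed widely between libraries. Its 29 markers took 55.2%, 42.3% and 1.60% of counts in Traf6 KO 1, 2 and 3, and 19.8%, 0.480%, 0.457% and 3.19% in the libraries labelled control 1 to 4. All 29 had estimates above 0, with a median log2 fold change of 3.2 and overlapping groups, and 0 passed the adjusted threshold. The beta-cell marker list had all 12 genes above 1 CPM in all libraries. It summed to between 89800 and 116000 CPM in Traf6 KO libraries and between 156000 and 190000 CPM in Control libraries. All 12 had estimates below 0, and 0 passed. Of these, 6 were lower in Traf6 KO without overlap, a pattern found in 8.68% of all genes tested. Beta-cell RNA was thus present in all libraries, but its marker level differed between the groups. In bulk islets, fewer cells of a type and less RNA per cell cannot be told apart. Animal tags in the sample names put Traf6 KO 3 and the library labelled control 4 under tag S and the others under tags Q and R. Whether a tag marks a litter, a cage or a day is not stated, so the p-values measure the spread between these libraries.

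Traf6 (ENSMUSG00000027164, chromosome 2, 101678429 to 101701669, plus strand, GRCm38), the targeted gene and the ubiquitin ligase below Toll-like and interleukin-1 receptors, had 14.7, 15.4 and 14.5 CPM in Traf6 KO 1, 2 and 3, against 17.9, 25.5, 22.1 and 12.6 CPM in the libraries labelled control 1 to 4. These levels rest on 163, 285 and 447 counts in Traf6 KO libraries and on 512, 915, 756 and 358 counts in Control libraries. The Traf6 KO libraries lay close together, controls 1 to 3 lay above them, and the library labelled control 4 lay below them all. Its beta-cell marker list summed to 156000 CPM, outside the Traf6 KO range of 89800 to 116000 CPM. Traf6 did not place this library with the other controls, but a level in bulk islets does not settle a genotype. Each direction given here counts it as Control. On the log2 scale Traf6 KO differed from Control by -0.40 ± 0.22 (SE; adjusted p = 0.416 by edgeR), with a 95% interval from -0.91 to 0.12, and an exact two-sided permutation test gave p = 0.2286 (35 ways to place the labels). Whole-gene counts do not show a deleted exon apart from the rest of the transcript.

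A measure free of library scaling was the share of Traf6 among the counts of all 7 members. Traf6 made up 11.9%, 12.4% and 11.2% of TRAF counts in Traf6 KO 1 to 3, and 15.5%, 20.8%, 18.3% and 10.3% in the libraries labelled control 1 to 4. The exact 95% binomial interval, which covers counting error only, was 10.2% to 13.7% in Traf6 KO 1 and 9.35% to 11.4% in the library labelled control 4, while that of control 1, the lowest of the other controls, was 14.3% to 16.8%. The interval of the library labelled control 4 overlapped those of all 3 Traf6 KO libraries and of no other Control library. The mean share was 11.8% ± 0.622 in Traf6 KO islets and 16.2% ± 4.47 in Control islets (SD, n = 3 and 4).

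**Figure D1:**
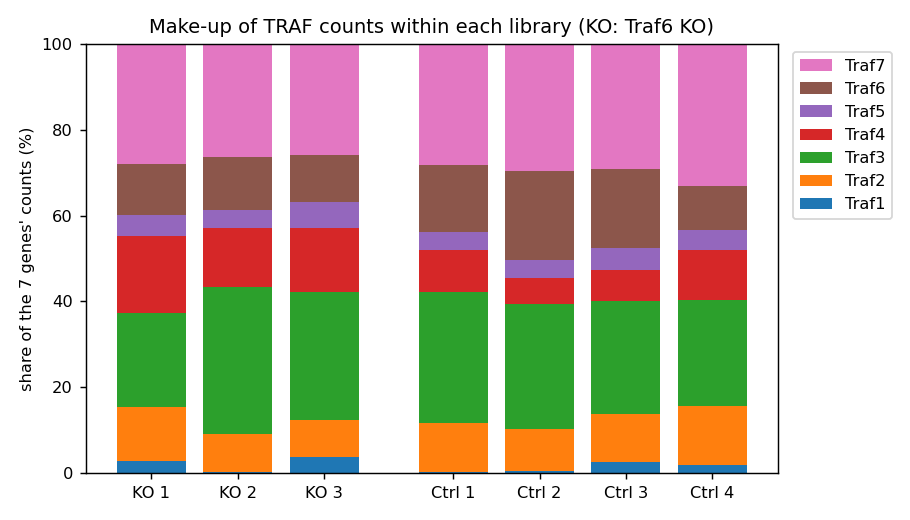
Share of each member (percent, vertical axis) in the summed counts of the 7 TRAF genes, 1 bar per library, with Traf6 KO libraries on the left and Control libraries on the right. Traf6 (brown) took 11.2% to 12.4% in Traf6 KO libraries and 10.3% to 20.8% in Control libraries, where the lowest bar is Control 4, and Traf4 (red) took 13.8% to 17.98% in Traf6 KO libraries and 6.12% to 11.6% in Control libraries.

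Traf4 (ENSMUSG00000017386, chromosome 11, 78158499 to 78165589, minus strand), a TRAF of epithelial and neural development first found in breast carcinoma, had 22.3, 17.1 and 19.5 CPM in Traf6 KO 1, 2 and 3, against 11.2, 7.525, 8.75 and 14.2 CPM in the libraries labelled control 1 to 4. The counts behind them were 247, 317 and 602 in Traf6 KO libraries and 320, 270, 299 and 403 in Control libraries. The groups did not overlap, and the Control library nearest to the Traf6 KO libraries was the one labelled control 4, which also had the lowest Traf6. The difference on the log2 scale was 0.91 ± 0.22 (SE; unadjusted p = 0.00357 and adjusted p = 0.194 by edgeR), with a 95% interval from 0.40 to 1.43. The exact two-sided permutation test gave p = 0.0571, the smallest that 3 against 4 libraries allow, so no member could fall below 0.05 by that test.

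Traf4 was the only member with an unadjusted edgeR p under 0.05 in the higher direction, and none had it in the lower direction. Among all genes tested, 8.81% had an unadjusted p under 0.05 and were higher in Traf6 KO, and 7.17% were lower. It was likewise the only member with all Traf6 KO libraries above all Control libraries, a pattern found in 5.58% of genes tested, and no member had the opposite pattern, which 8.68% of genes had. By the adjusted threshold, 0% of genes were higher and 0% lower by edgeR, while 2589 genes had an unadjusted p under 0.05. A count of 1 among 7 members is close to this background, so it describes Traf4 and not the family.

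The Traf4 call depended on the test. With DESeq2 the log2 fold change was 0.94 with adjusted p = 0.0112, and with limma-voom and library quality weights it was 0.96 with adjusted p = 0.0386. Many genes passed in those settings. With DESeq2, 466 of 16132 genes passed as higher and 238 as lower. With quality weights these were 669 and 377 of 16203. Over the 20 alternative settings the adjusted p of Traf4 ran up to 0.475. The estimate itself ran from 0.76, with the acinar level as a covariate, to 1.11, with the replicate number as a block. Without the 3 acinar-rich libraries it was 0.94, a value from 1 Traf6 KO library whose spread could not be estimated. On plain library totals, where acinar RNA takes up the total, Traf4 stood at 11.2, 12.6 and 26.4 unscaled CPM in Traf6 KO libraries and at 10.7, 9.82, 11.0 and 18.2 in Control libraries, and the groups overlapped.

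As a share of all TRAF counts, which needs no scaling, Traf4 made up 17.98%, 13.8% and 15.0% in Traf6 KO libraries and 9.69%, 6.12%, 7.24% and 11.6% in the libraries labelled control 1 to 4. The shares did not overlap. The ratio of Traf6 to Traf4 counts, chosen after the values were seen, was 0.660, 0.899 and 0.743 in Traf6 KO libraries and 1.60, 3.39, 2.53 and 0.888 in the libraries labelled control 1 to 4. Controls 1 to 3 thus had more Traf6 than Traf4 counts, and the library labelled control 4 fell among the Traf6 KO libraries. In the tag S pair, Traf6 KO 3 against the library labelled control 4, Traf4 differed by 0.45 and Traf6 by 0.20 on the log2 scale, a comparison with no replicate. With both tag S libraries left out, Traf4 was higher by 1.10 on the log2 scale (adjusted p = 0.0748 by edgeR).

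**Figure D2:**
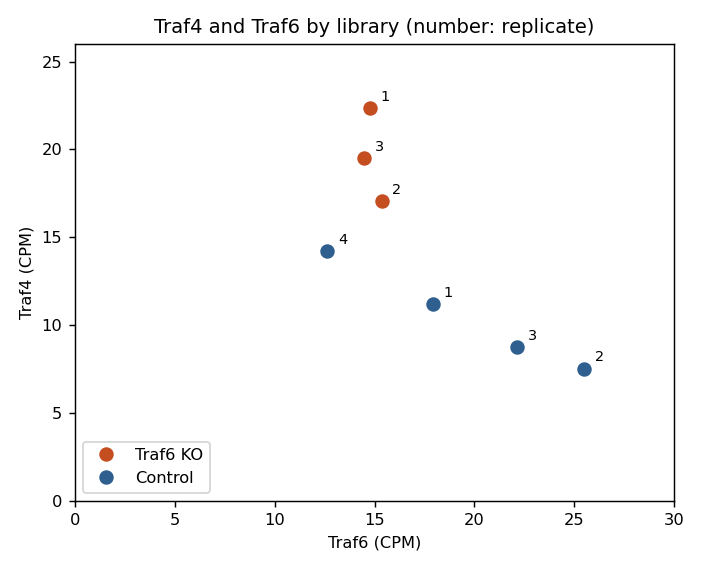
Traf4 (CPM, vertical axis) against Traf6 (CPM, horizontal axis), 1 point per library, numbered by replicate. The 3 Traf6 KO libraries lie at 17.1 to 22.3 CPM of Traf4 and 14.5 to 15.4 CPM of Traf6, Controls 1 to 3 have more Traf6 and less Traf4, and the library labelled control 4 lies beside the Traf6 KO libraries at 12.6 CPM of Traf6 and 14.2 CPM of Traf4.

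Marker lists of other cell types gave the following values in the same libraries. The endothelial list summed to 419, 454 and 478 CPM in Traf6 KO libraries and to 523, 480, 566 and 595 CPM in Control libraries. These sums did not overlap, but the nearest were 478 and 480 CPM. The mean log2(CPM + 1) of the list did overlap, at 4.696 in Traf6 KO 3 and 4.682 and 4.573 in controls 1 and 2. Of its 12 genes, 11 had estimates below 0. Only 1 of the 12 was lower in Traf6 KO without overlap between groups, beside 8.68% of all genes tested. The ductal list summed to 2340, 1520 and 1230 CPM in Traf6 KO libraries and to 1280, 880, 927 and 851 CPM in Control libraries, with Krt19 at 8.50, 3.5 and 1.04 CPM in Traf6 KO libraries and 0.946, 1.09, 0.205 and 1.34 CPM in Control libraries. Of 13 ductal genes tested, 9 had estimates above 0 and 4 below. The 2 of them without overlap between groups were lower in Traf6 KO, a pattern found in 8.68% of all genes tested. No gene of these lists was at 0 in all libraries. The stellate and fibroblast list summed to 148 to 334 CPM in Traf6 KO libraries and 130 to 213 CPM in Control libraries, with 10 of 12 genes above 0 and a median log2 fold change of 1.22. Its marker Pdgfra is a growth factor receptor of stromal cells. It was at 2.17, 0.754 and 2.11 CPM in Traf6 KO libraries and at 0.42, 0.195, 0.0878 and 0.141 CPM in Control libraries. In that list Pdgfra was the only 1 of 12 genes without overlap between groups. All Traf6 KO libraries were above all Control libraries in 5.58% of genes tested. The myeloid list summed to 181 to 317 CPM in Traf6 KO libraries, to 229 to 282 CPM in controls 1 to 3 and to 633 CPM in the library labelled control 4, where Tyrobp, a myeloid signalling adaptor, was at 16.7 CPM against at most 4.4 elsewhere. Adding the myeloid level as a covariate put Traf4 at 1.03 and Traf6 at -0.47 on the log2 scale (adjusted p = 0.281 and 0.323 by edgeR). With the acinar level as the covariate instead, Traf4 was at 0.76 and Traf6 at -0.25 (adjusted p = 0.232 and 0.683 by edgeR). The part of endothelial, ductal and stellate cells in the Traf4 and Traf6 values was not tested.

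**Figure D3:**
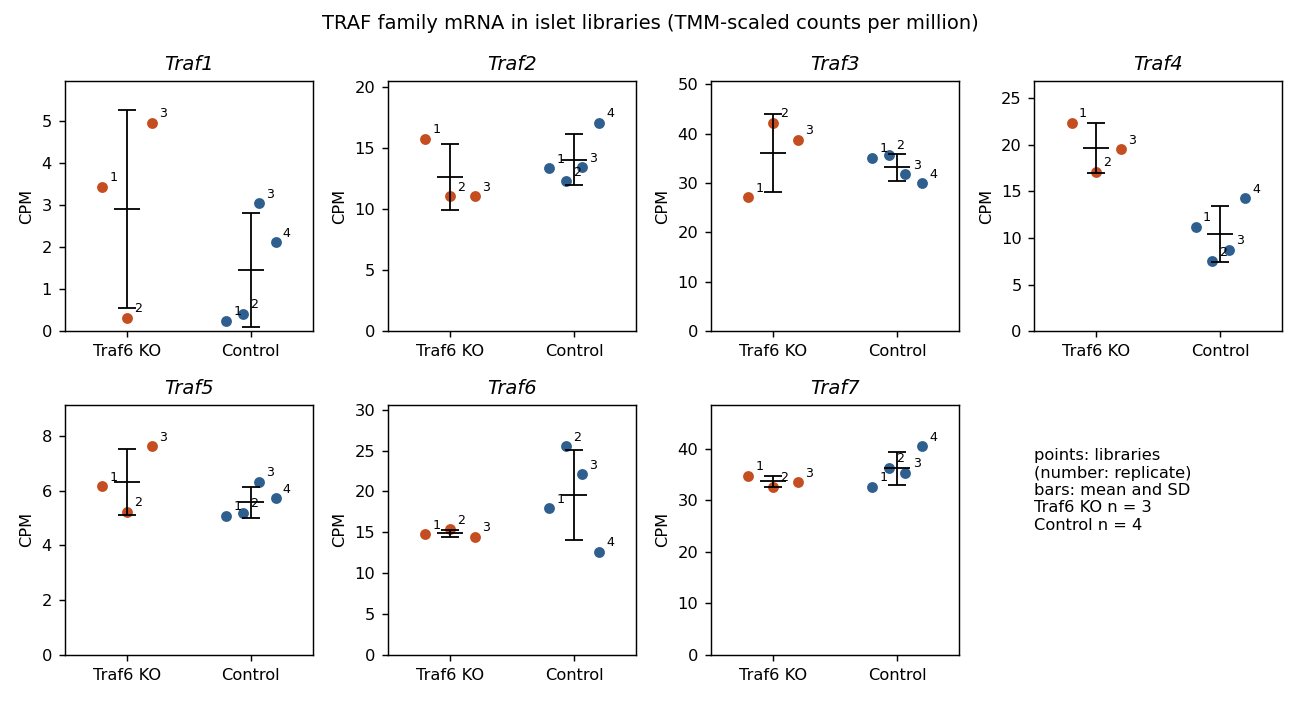
Level of each TRAF gene (TMM-scaled CPM, vertical axis from 0, 1 panel per gene), with Traf6 KO libraries (n = 3) on the left and Control libraries (n = 4) on the right, points numbered by replicate and bars showing mean and SD. Only in the Traf4 panel do all Traf6 KO points, 17.1 to 22.3 CPM, lie above all Control points, 7.525 to 14.2 CPM.

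Among the adaptors of TNF receptors, Traf1 (ENSMUSG00000026875, chromosome 2, 34941750 to 34961772, minus strand), which lacks a RING domain and is an NF-kB-induced gene of activated lymphocytes, had 3.44, 0.323 and 4.96 CPM in Traf6 KO libraries, against 0.245, 0.418, 3.04 and 2.12 CPM in the libraries labelled control 1 to 4. It was high or low in both genotypes, and the highest library had 20.2 times the lowest. Its counts were 38, 6 and 153 in Traf6 KO libraries and 7, 15, 104 and 60 in Control libraries, few enough that the lowest value, 6 counts, has an exact Poisson 95% interval of 2.20 to 13.1. Its log2 fold change, 1.00 ± 1.00 (SE; adjusted p = 0.648 by edgeR), had a 95% interval from -1.31 to 3.31. Without Traf6 KO 3 it was 0.31, and with limma-voom quality weights it turned to -0.58.

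The summed level of the 14 lymphocyte markers was lowest in the same 3 libraries as Traf1 (Traf6 KO 2 and controls 1 and 2) and highest in the same library (Traf6 KO 3), although single markers differed. They summed to 89.5, 38.7 and 459 CPM in Traf6 KO libraries and to 13.8, 14.9, 86.0 and 78.3 CPM in the libraries labelled control 1 to 4, and 3 of the 14 were above 1 CPM in all libraries. Ms4a1, which encodes the B-cell antigen CD20, was at 8.77, 2.69 and 8.71 CPM in Traf6 KO libraries and at 0, 0.0557, 4.07 and 2.19 CPM in Control libraries. Cd79a, a B-cell receptor chain, was at 14.4, 10.6 and 15.6 CPM in Traf6 KO libraries and at 8.44, 7.36, 22.1 and 11.4 CPM in Control libraries, highest in control 3. Of 13907 genes compared, those most like Traf1 across the 7 libraries were Cd5, a T-cell surface receptor, and Trbc1, a T-cell receptor constant chain, each with Pearson r = 0.9895 of log2(CPM + 1). Such a correlation, the highest among many genes over 7 libraries that share composition and depth, is a description. The part of lymphocytes in the Traf1 values was not tested.

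Traf2 (ENSMUSG00000026942, chromosome 2, 25517982 to 25546940, minus strand), which recruits the cellular inhibitors of apoptosis to TNF receptors, had 15.7, 11.0 and 11.0 CPM in Traf6 KO libraries and 13.3, 12.3, 13.4 and 17.1 CPM in Control libraries. The groups overlapped, and the highest level was in the library labelled control 4. Traf6 KO differed from Control by -0.16 ± 0.18 on the log2 scale (SE; adjusted p = 0.690 by edgeR), with a 95% interval from -0.57 to 0.26, and by 0.03 once the tag S libraries were left out. Transcripts of 54 other genes share a stretch of at least 95% identity with Traf2 transcripts, of up to 174 bases, so the counting of reads from that stretch is uncertain.

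Traf3 (ENSMUSG00000021277, chromosome 12, 111166370 to 111267153, plus strand), which holds down the kinase NIK of the alternative NF-kB pathway, had 27.1, 42.2 and 38.8 CPM in Traf6 KO libraries and 35.2, 35.7, 31.8 and 30.01 CPM in Control libraries. Traf6 KO islets held both the lowest and the highest library. The estimate was 0.12 ± 0.16 on the log2 scale (SE; adjusted p = 0.735 by edgeR), with a 95% interval from -0.24 to 0.49. In Traf6 KO 1, the library with the most acinar RNA, Traf3 made up 21.8% of TRAF counts, the lowest share of the 7 libraries, against 34.1% in Traf6 KO 2, the highest.

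Traf5 (ENSMUSG00000026637, chromosome 1, 191997205 to 192092559, minus strand), an adaptor of lymphocyte costimulatory receptors, had 6.15, 5.22 and 7.61 CPM in Traf6 KO libraries and 5.08, 5.18, 6.32 and 5.72 CPM in Control libraries. The groups overlapped, with the highest level in Traf6 KO 3. On the log2 scale the difference was 0.19 ± 0.19 (SE; adjusted p = 0.655 by edgeR), with a 95% interval from -0.25 to 0.62. Without Traf6 KO 3 it was 0.024. An antisense gene, Gm26879, overlaps 205 exon bases of Traf5 and had at most 1 count in any library.

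Traf7 (ENSMUSG00000052752, chromosome 17, 24508562 to 24527938, minus strand), the divergent member with WD40 repeats in place of the TRAF domain, had 34.7, 32.6 and 33.5 CPM in Traf6 KO libraries and 32.6, 36.3, 35.4 and 40.4 CPM in Control libraries. It was the steadiest member, with the highest library at 1.24 times the lowest. Its estimate was -0.11 ± 0.10 on the log2 scale (SE; adjusted p = 0.626 by edgeR), and its 95% interval, from -0.33 to 0.12, was the narrowest of the family. Traf7 shares exon bases with Rab26 on the same strand, and 110 exon bases with Caskin1 on the other strand, and Rab26 had 272, 299 and 37 counts in Traf6 KO libraries and 211, 44, 68 and 68 in Control libraries. With the counting rule not given, reads of the shared bases cannot be told apart.

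**Figure D4:**
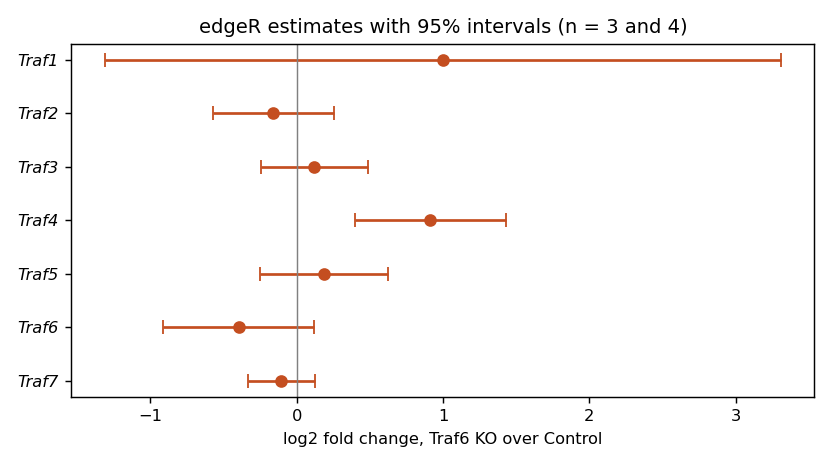
Log2 fold change of Traf6 KO over Control for each member (horizontal axis), with points as edgeR estimates and bars as 95% intervals (n = 3 and 4). The interval of Traf4 runs from 0.40 to 1.43, those of the other members include 0, and that of Traf1 is the widest, from -1.31 to 3.31.

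Seen together, 4 members had estimates above 0 and 3 below, with a median log2 fold change of 0.12, against 0.01 over all genes tested, of which 50.7% were above 0. The summed TMM-scaled level of the family was 126.0 ± 3.30 CPM in Traf6 KO islets (123.9 to 129.8) and 120.4 ± 3.30 CPM in Control islets (115.6 to 122.9; SD, n = 3 and 4). On plain library totals the means were in the opposite order, with 62.2, 91.7 and 175.5 unscaled CPM in Traf6 KO libraries (mean 109.8) and 110.3, 160.3, 151.8 and 156.2 in Control libraries (mean 144.7). No direction for the family as a whole is therefore given.

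Levels of different genes were set beside each other as CPM per kb of annotated exon. In Traf6 KO islets the order was Traf4 (5.97 ± 0.802), Traf7 (5.73 ± 0.180), Traf3 (4.90 ± 1.08), Traf2 (2.47 ± 0.532), Traf6 (1.89 ± 0.0563), Traf5 (1.39 ± 0.264) and Traf1 (0.329 ± 0.268), in CPM per kb with SD and n = 3. In Control islets it was Traf7 (6.16 ± 0.549), Traf3 (4.51 ± 0.371), Traf4 (3.17 ± 0.899), Traf2 (2.75 ± 0.409), Traf6 (2.48 ± 0.704), Traf5 (1.22 ± 0.125) and Traf1 (0.165 ± 0.154), in CPM per kb with SD and n = 4. The ranges of the neighbours Traf4 and Traf7, and of Traf7 and Traf3, overlapped in Traf6 KO islets. In Control islets the ranges of Traf3 and Traf4, of Traf4 and Traf2, and of Traf2 and Traf6 overlapped. With the length of the longest transcript in place of all annotated exons, Traf7 came first in both groups, at 10.5 CPM per kb in Traf6 KO islets and 11.3 CPM per kb in Control islets, so the order of the upper members depends on which transcripts islets use.

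Against all genes tested, the length-scaled level of Traf4 lay at percentile 67.8 in Traf6 KO islets and 52.7 in Control islets. Traf6 was at percentile 39.0 and Traf1 at percentile 11.9 in Traf6 KO islets, against 46.7 and 6.1 in Control islets. The coding sequences, of 409 codons for Traf1 to 669 for Traf7 with the stop codon counted, aligned with 60.8% to 69.0% identical bases between any pair of members. No member's transcripts shared a stretch of at least 95% identity over 100 bases with another member.

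The genes most like the other members across the 7 libraries were named by the same measure as for Traf1. Traf4 was most like Atp10a, a lipid flippase, at 2.62, 2.37 and 2.14 CPM in Traf6 KO libraries and 1.40, 1.09, 1.2 and 1.80 CPM in Control libraries (Pearson r = 0.9776), and next Arhgap11a, a GTPase-activating protein of dividing cells (r = 0.9731). Traf6 was most like Trub2, a pseudouridine synthase, at 11.5, 12.5 and 12.3 CPM in Traf6 KO libraries and 13.2, 15.9, 15.2 and 11.2 CPM in Control libraries (r = 0.98), and next Ints4, an Integrator subunit (r = 0.9737). Traf2 was most like Col9a3 and Polr1c, Traf3 like Spire1 and Irgq, Traf5 like Ddr2 and Zc3h12d, and Traf7 like Col25a1 and Cers4, with r between 0.9747 and 0.994.

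The wider pathway was described by 6 lists of 79 gene names, of which 65 were tested. Of these, 42 had estimates above 0 and 23 below, with a median log2 fold change of 0.13, and 0 passed the adjusted threshold in either direction. An unadjusted edgeR p under 0.05 was found for 11 higher and 2 lower genes, or 16.9% and 3.1% of those tested, beside 8.81% and 7.17% of all genes. All Traf6 KO libraries lay above all Control libraries for 7 genes (10.8%, beside 5.58% of all genes) and below them for 2 (3.1%, beside 8.68%). These shares were not tested against the background, and the lists were drawn up with earlier results of these data known.

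**Figure D5:**
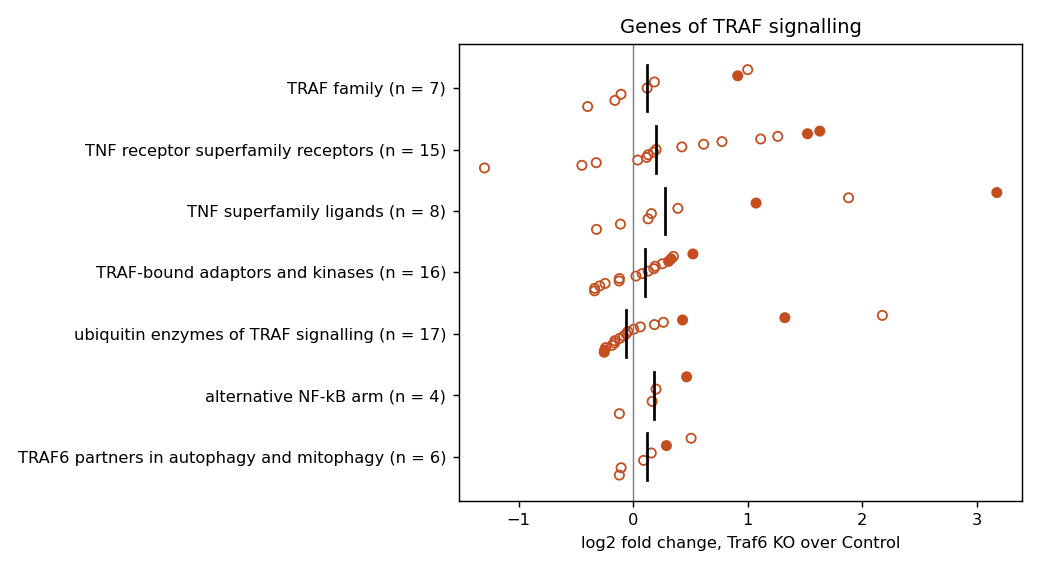
Log2 fold change of Traf6 KO over Control (horizontal axis) for the genes of the TRAF family and of 6 lists around it, 1 circle per gene, filled where the unadjusted edgeR p is under 0.05, with a bar at each list's median. Medians lie between -0.06 and 0.28, and no gene of any list passed the adjusted threshold.

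Of the TNF receptor superfamily, the receptors onto which TRAFs dock, 15 of 20 were tested, 12 with estimates above 0 and 3 below, and 0 passed. Eda2r, the X-linked ectodysplasin receptor, had 1.54, 1.08 and 1.2 CPM in Traf6 KO libraries and 0.770, 0.418, 0.293 and 0.141 CPM in Control libraries, without overlap, and the estimate was 1.63 ± 0.53 on the log2 scale (SE; adjusted p = 0.231 by edgeR). Tnfrsf13b, the B-cell receptor TACI, had 1.18 to 3.80 CPM in Traf6 KO libraries and 0.446 to 1.38 CPM in Control libraries, which overlapped (log2 fold change 1.52 ± 0.51, edgeR adjusted p = 0.235). Both are scarce, with at most 90 counts in a library, and both Tnfrsf13b and the lymphocyte markers were lowest in controls 1 and 2. Ngfr, the p75 neurotrophin receptor, and Tnfrsf9, the costimulatory receptor 4-1BB, had log2 fold changes of 1.11 ± 0.69 and -0.32 ± 0.20, with overlapping groups.

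Of the TNF superfamily ligands, 8 of 16 were tested, 6 above 0 and 2 below, and 0 passed. Tnfsf15, a ligand of endothelial and immune cells, had 11, 16 and 10 counts in Traf6 KO libraries and 3, 0, 1 and 5 counts in Control libraries, without overlap. Its estimate of 3.17 ± 0.86 on the log2 scale (SE; adjusted p = 0.202 by edgeR) rests on those few counts and on the prior count of the fit. Eda, the ectodysplasin ligand, differed by 1.07 ± 0.43 (adjusted p = 0.290 by edgeR), and Tnfsf12, or TWEAK, by -0.32 ± 0.18 on the same scale. The Eda estimate was 0.55 without Traf6 KO 1, 0.25 with the acinar covariate and 0.19 without the acinar-rich libraries. Tnf itself had 0, 2 and 169 counts in Traf6 KO libraries and 8, 39, 23 and 1 in Control libraries, so its log2 fold change of 1.88 ± 1.39 came from Traf6 KO 3, without which it was -2.93.

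Of the 16 adaptors and kinases that bind TRAFs, 10 had estimates above 0 and 6 below, and 0 passed. Tank, which links TRAFs to the kinase TBK1, had 29.0, 24.6 and 16.7 CPM in Traf6 KO libraries and 18.8, 16.1, 14.2 and 16.0 CPM in Control libraries, with Traf6 KO 3 inside the Control range (log2 fold change 0.52 ± 0.19, edgeR adjusted p = 0.262). Without Traf6 KO 3, where 568 genes passed as higher and 133 as lower, it was 0.72 with edgeR adjusted p = 0.038. With the acinar covariate it was 0.18 (edgeR adjusted p = 0.569) and without the acinar-rich libraries 0.11. Traf3ip2, or Act1, the adaptor of the interleukin-17 receptor, had 17.2, 14.9 and 14.3 CPM in Traf6 KO libraries and 12.1, 12.0, 12.9 and 12.0 CPM in Control libraries, without overlap (0.33 ± 0.11, edgeR adjusted p = 0.238), and 0.21 without the acinar-rich libraries. Map3k3, a MAP kinase kinase kinase, had a log2 fold change of 0.31 ± 0.12, and Tradd, the adaptor of TNF receptor 1, of -0.34 ± 0.15 (-0.58 without the acinar-rich libraries).

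Of the 17 ubiquitin enzymes around TRAFs, 7 had estimates above 0 and 10 below, and 0 passed. Usp2, a deubiquitinase reported to act on TRAF6 and known as a clock-controlled gene, had 18.5, 17.6 and 13.8 CPM in Traf6 KO libraries and 9.28, 5.16, 6.35 and 5.72 CPM in Control libraries. The groups did not overlap, and the estimate was 1.32 ± 0.22 on the log2 scale (SE; unadjusted p = 0.000352, adjusted p = 0.176 by edgeR, which no gene of the table went below). DESeq2 gave Usp2 an adjusted p of 8.28e-05 and limma-voom with quality weights 0.0306. In these settings 466 and 669 genes in all passed as higher. Plain limma-voom gave 0.223, and edgeR gave 0.0277 without Traf6 KO 3 and 0.475 without Traf6 KO 2.

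Peli1, a ubiquitin ligase of Toll-like receptor signalling, had 20.8, 17.2 and 17.2 CPM in Traf6 KO libraries and 12.5, 11.8, 13.7 and 16.5 CPM in Control libraries, without overlap (0.43 ± 0.15, edgeR adjusted p = 0.242). The deubiquitinase Otub1 and the linear-ubiquitin ligase subunit Rbck1, or HOIL-1, lay lower in all Traf6 KO libraries, by -0.25 ± 0.09 and -0.25 ± 0.10 on the log2 scale (adjusted p = 0.246 and 0.277 by edgeR). Otub1 had 46.3 to 52.9 CPM in Traf6 KO libraries and 56.8 to 61.5 CPM in Control libraries. Rbck1 had 50.7 to 60.1 CPM in Traf6 KO libraries and 65.0 to 71.0 CPM in Control libraries, and its estimate was -0.16 without Traf6 KO 2.

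The alternative NF-kB arm, which Traf3 and Traf2 restrain, had 3 of its 4 genes above 0 and 1 below, and 0 passed. Nfkb2, whose product is processed to p52, had 15.6, 11.7 and 19.2 CPM in Traf6 KO libraries and 10.8, 13.4, 9.83 and 10.8 CPM in Control libraries, with overlap (0.47 ± 0.19, edgeR adjusted p = 0.290). It was 0.27 without Traf6 KO 3, 0.21 with quality weights and 0.75 without the acinar-rich libraries. Chuk (the kinase IKK alpha), Relb (the partner of p52) and Map3k14 (NIK) had log2 fold changes of 0.20, 0.17 and -0.12.

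Of 6 partners of TRAF6 in autophagy and mitophagy, 4 had estimates above 0 and 2 below, and 0 passed. Ulk1, the kinase that starts autophagy and a TRAF6 substrate in published work, had 47.6, 56.1 and 43.5 CPM in Traf6 KO libraries and 42.9, 39.1, 40.7 and 37.6 CPM in Control libraries, without overlap (0.29 ± 0.11, edgeR adjusted p = 0.271). It was 0.19 with the acinar covariate and 0.14 without the acinar-rich libraries. Becn1 and Ambra1, of the beclin 1 complex, had log2 fold changes of -0.10 and -0.12.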

How the data were processed

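RNA from 7 libraries of isolated mouse islets was sequenced in paired 151 bp cycles, per the labels' protocols. The deposited table holds raw counts (whole numbers) for each gene and library. The submitters' processing notes name STAR 2.6.1b, RSEM 1.3.1, FastQC and GRCm38 without saying what each did, and rounded RSEM estimates are possible. The sources used here do not give the annotation, strand setting or counting rule. Coordinates and exon lengths came from GENCODE M21 (55227 of 55487 identifiers matched), upstream sequences from RefSeq GRCm38.p6.

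Members and gene lists were chosen with earlier results of these data known. Counts were fitted over all genes in R 4.3.3 with edgeR 4.0.16 (TMM, filterByExpr at count 10 and total 15, quasi-likelihood F test of genotype, all 7 libraries), with Benjamini-Hochberg adjustment over 16203 genes. Each SE follows from the F statistic and the fold change. Exact two-sided permutation tests of log2 CPM were run for the 7 members with scipy 1.17.1. Alternatives used DESeq2 1.42.0, limma 3.58.1, other factors and filters, covariates and left-out libraries. The fit was also run on simulated counts without differences in acinar RNA between libraries, and no result here rests on that run.

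Named were the 7 members, up to 4 genes with the smallest p in each of the 6 pathway lists (1 of them is not reported here), the 2 genes most like each member (Pearson r of log2(CPM + 1)), and defining markers of 8 cell-type lists; the ratio of Traf6 to Traf4 was added after values were seen. The 21 pairs of libraries all differed beyond sampling noise (chi-square per gene at least 21.82). The planned protein identity was replaced by that of coding bases, aligned with Biopython 1.88, because no protein table was used here; shared transcript stretches were found with BLAST 2.17.0. Intervals on counts cover counting error only.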

Additional observations from a re-analysis of the deposited data

Results flagged for a closer look

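Dixon's test for a single outlying library was applied to 37 groups of 4 Control libraries, 1 for each gene with values by library, and marked 2 of them; chance marks about 1 in 20 groups. Tnfsf12, the ligand TWEAK, was at 9.49 CPM in control 1, apart from 7.66 to 7.91 CPM in the other Control libraries. Traf3ip2, the adaptor Act1, was at 12.9 CPM in control 3, apart from 12.0 to 12.1 CPM in the others. No TRAF member was marked.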

How the results depend on the processing

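The members kept their direction and stayed past no threshold under 20 alternative settings, except Traf1, which turned to -0.58 with limma-voom quality weights, Traf2, which turned to 0.033 among Q- and R-tagged libraries, Traf3, which was 0 without Traf6 KO 2, and Traf4, which passed with DESeq2 (0.94) and with quality weights (0.96). Leaving out each library in turn gave log2 fold changes of 0.31 to 1.66 for Traf1, -0.34 to -0.048 for Traf2, 0 to 0.30 for Traf3, 0.79 to 1.10 for Traf4, 0.024 to 0.32 for Traf5, -0.55 to -0.24 for Traf6 and -0.13 to -0.045 for Traf7. The cause of these changes was not tested.

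Genes passing, higher and lower in Traf6 KO, numbered 466 and 238 with DESeq2, 669 and 377 with quality weights, 6 and 0 with the replicate block, 3 and 0 with the acinar covariate, 61 and 6 without the 3 acinar-rich libraries (chosen after seeing the data, with the lone Traf6 KO library assumed to vary like Control), and 0 to 568 and 0 to 133 when each library was left out, the highest counts without Traf6 KO 3. In the lists, quality weights passed 1 ligand (Tnfsf15), 1 adaptor (Tank), 3 ubiquitin enzymes (Usp2, Otub1, Rbck1) and 1 autophagy partner (Ulk1). DESeq2 passed 1 ubiquitin enzyme (Usp2). These are among 65 list genes tested, beside 669 and 377 of 16203 genes with quality weights. With DESeq2, 466 and 238 of 16132 genes passed. The list shares were not tested against these. Leaving out each library gave 0 to 1 adaptor (Tank) and 0 to 1 ubiquitin enzyme (Usp2), again without Traf6 KO 3.

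Deviations from the group means of same-numbered libraries correlated at 0.597, -0.177 and 0.454. Those of differently numbered libraries correlated between -0.736 and 0.533. With so few pairs this does not settle whether the replicate numbers pair the libraries. With the replicate block Traf4 was at 1.11 and Traf6 at -0.55. Only the library labelled control 4 has replicate number 4, so under the block it did not bear on these estimates. With that library left out and no block, Traf4 was at 1.10 and Traf6 at -0.55.

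Among the 23 named list genes, 430 of 456 alternatives kept direction and side of the threshold, 9 passed it and 17 changed sign, in 5 genes. With quality weights Ngfr was -0.40, Tnf -1.46 and Relb -0.28. Among Q- and R-tagged libraries Ngfr was -0.11, Tnf -3.30 and Relb -0.18. Tnf was -0.10 with the replicate block and -0.19 with the tag as a term. Map3k14 was 0.23 and Ambra1 0.10 with the acinar covariate, and 0.47 and 0.036 without the acinar-rich libraries. Leaving out each library gave -0.66 to 0.10 for Map3k14, -0.14 to 1.58 for Ngfr, -0.19 to 0.44 for Relb and -2.93 to 2.40 for Tnf, which missed the low-count filter and has no value without control 2 or control 3.

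Levels per kb moved beyond 1 SD in 16 of 28 alternatives. With the longest transcript they were 0.845, 3.06, 3.04, 2.41 and 10.5 CPM per kb for Traf1, Traf2, Traf5, Traf6 and Traf7 in Traf6 KO islets and 0.424, 3.41, 2.68 and 11.3 for Traf1, Traf2, Traf5 and Traf7 in Control islets. On plain library totals they were 5.08, 1.62 and 4.93 for Traf4, Traf6 and Traf7 in Traf6 KO islets and 3.30, 5.39, 1.47 and 7.43 for Traf2, Traf3, Traf5 and Traf7 in Control islets. Without Traf7 the share of Traf6 in TRAF counts was 16.1% in Traf6 KO islets and 23.1% in Control islets. Depth limits Traf1, with 6 to 153 counts per library, more than the other members.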
